A study of Mus musculus with 9 samples.

Results

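The collagen family was described across mouse embryonic stem cells (ESC) and re-derived cell lines named D5 and D10. Members were the genes whose symbol in the deposited table has the form Col, a number, the letter a and a number. They were 39 genes with 40 probe sets, of 22360 named genes and 28853 probe sets on the array. Col5a2 alone had more than 1 probe set and was represented by the brighter one, judged by its mean over all 9 arrays. The members were 11 fibrillar chains, 6 basement membrane chains (all of type IV) and 22 other chains.

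The ESC group came from blastocysts of 3.5 days. Cells were then sought in the bone marrow of transplanted mice, and the D5 line was taken from marrow at day 5 and the D10 line at day 10 after transplantation. The labels of all 9 samples name C57BL/6 and mice carrying the Oct4/EGFP OG2 transgene, in which the green fluorescent protein reports Oct4. In parentheses they add a strain that runs from B57BL6/CBA for ESC replicate 1 to B57BL14/CBA for D10 replicate 3, a different spelling for each sample, so whether the samples share a strain cannot be told from the labels. For both re-derived lines, cells positive for this protein were sorted, colonies were picked, and cells were passaged on feeder cells in stem cell medium, on which the ESC also grew. Each group had 3 arrays labelled as biological replicates of total RNA. Nothing in the labels says that the 3 arrays of D5 or of D10 came from separately derived lines, so p-values measure only the spread between these samples.

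Collagens are secreted proteins in which 3 alpha chains wind into a triple helix. Fibrillar collagens form the tensile fibrils of connective tissue, type IV chains form the sheet-like network of basement membranes, and the remaining types coat fibrils, form microfibrils or anchor cells. Fibroblasts are the main source of fibrillar collagen, and type IV collagen is made from the earliest stages of the mouse embryo.

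All values are on the log2 scale of the deposited table, where a difference of 1 is a 2-fold change, and the level of a probe set is compared only with its own level in other arrays. Array medians over all probe sets lay between 4.45 and 4.53. D10 replicates 1 and 3 differed by an SD of 0.0686 over 8292 probe sets with a mean above 6, against 0.154 to 0.201 in the other pairs within a group. They were therefore counted as 1 sample, which leaves n = 2 for D10 and n = 3 for ESC and for D5. All tests are limma's moderated test over all probe sets, with p-values adjusted after Benjamini and Hochberg and a threshold of 0.05. A background level of 3.68 was set at the 95th percentile of the means of 1397 probe sets for smell receptors, olfactory and vomeronasal, which these cells should lack. Of the 39 collagens, 38 were above it in at least 1 group, and Col4a6 was not.

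In D5, 11 of the 39 collagens rose against ESC and 0 fell, where 2.83 percent of all genes rose and 1.69 percent fell. In D10, 12 rose against ESC and 0 fell, where 6.24 percent of all genes rose and 3.79 percent fell. Without ESC replicate 3, D5 replicate 1 or D5 replicate 3, the D5 count was 7. The 11 genes that rose in D5 were among the 12 that rose in D10, and both comparisons share the ESC arrays. The median change of the family was small, 0.13 in D5 and 0.08 in D10, beside -0.02 and -0.03 over all genes. It depended on single arrays: the D5 median was 0.02 without D5 replicate 3, 0.25 without D5 replicate 2 and 0.08 without ESC replicate 1. The D10 median was 0.01 without D10 replicate 2, 0.04 without ESC replicate 1 and 0.13 without ESC replicate 2 or 3. A group of 12 chains thus moved, and the other 27 did not pass the test. At a change of at least 2-fold, 2 collagens rose in D5 and 9 in D10, where the shares of all genes were 0.277 and 1.58 percent. In bulk RNA, more cells of a type and more RNA per cell cannot be told apart.

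**Figure D1:**
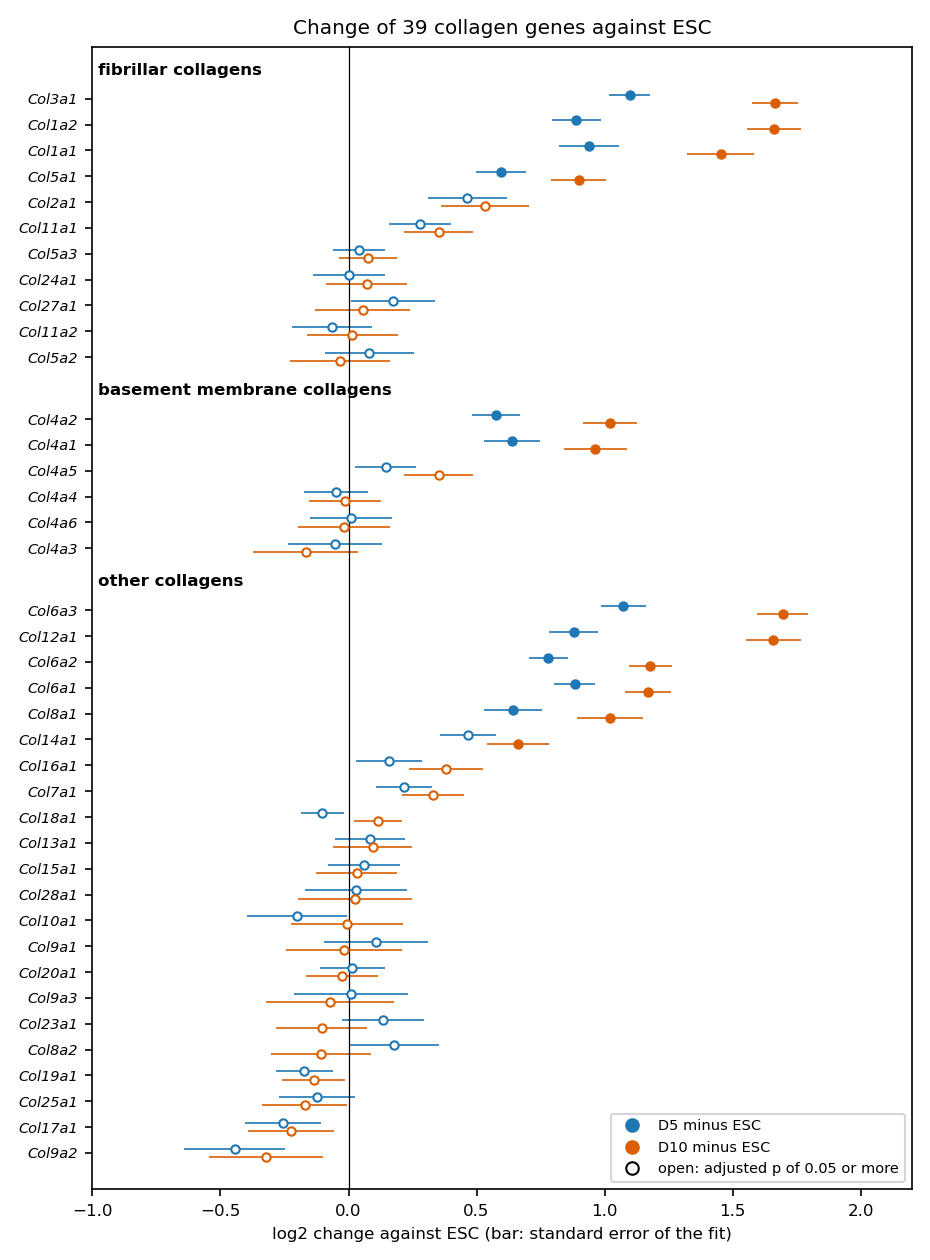
Change of each of the 39 collagen genes against ESC (x axis, log2 units) for D5 and D10, with genes on the y axis ordered by class. Bars are standard errors of the limma fit and open symbols did not pass an adjusted p of 0.05; the filled symbols all lie to the right of 0.

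Promoter sequence is shown for a gene that rose of each of types I, III, VI and VIII, so that the region upstream of genes that moved together can be read beside their values. The windows hold the 250 bases before the start given by RefSeq on GRCm38.p6, and lie at chr6:4505368-4505617 on the plus strand for Col1a2, chr1:45311288-45311537 on the plus strand for Col3a1, chr1:90843972-90844221 on the minus strand for Col6a3 and chr16:57754738-57754987 on the minus strand for Col8a1. Capitals mark motifs searched on both strands: the CCAAT box by these letters, the box named TATA by the letters TATAAA, the box named after its GC content by the letters GGGCGG, and the SMAD box by the letters CAGACA.
Col1a2: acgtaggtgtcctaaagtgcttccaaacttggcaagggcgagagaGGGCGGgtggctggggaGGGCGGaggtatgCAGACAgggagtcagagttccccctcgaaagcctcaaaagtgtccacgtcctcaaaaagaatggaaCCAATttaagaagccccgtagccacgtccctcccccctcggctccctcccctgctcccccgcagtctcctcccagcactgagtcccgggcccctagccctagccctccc
Col3a1: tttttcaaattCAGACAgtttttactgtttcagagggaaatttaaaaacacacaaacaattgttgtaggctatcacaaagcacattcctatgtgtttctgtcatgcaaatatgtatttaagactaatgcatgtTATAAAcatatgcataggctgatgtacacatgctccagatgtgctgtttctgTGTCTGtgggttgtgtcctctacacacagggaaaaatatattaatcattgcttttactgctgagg
Col6a3: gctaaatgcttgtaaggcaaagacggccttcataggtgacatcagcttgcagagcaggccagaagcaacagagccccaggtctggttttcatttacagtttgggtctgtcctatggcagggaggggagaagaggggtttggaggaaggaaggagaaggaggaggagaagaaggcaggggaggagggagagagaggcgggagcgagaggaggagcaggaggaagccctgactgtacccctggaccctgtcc
Col8a1: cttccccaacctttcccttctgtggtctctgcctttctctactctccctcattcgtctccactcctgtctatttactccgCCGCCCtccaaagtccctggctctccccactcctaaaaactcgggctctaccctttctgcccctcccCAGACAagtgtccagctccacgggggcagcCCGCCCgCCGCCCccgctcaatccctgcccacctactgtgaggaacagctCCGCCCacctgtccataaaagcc
The Col6a3 window held none of these letters, whereas the Col8a1 window held several GC boxes. Over the 32 collagens with a window, 34.4 percent held a CCAAT box, 15.6 percent a TATA box, 56.2 percent a GC box and 25.0 percent a SMAD box. Over 27025 genes of the table these shares were 34.5, 13.0, 32.9 and 17.1 percent. Of the 12 collagens that rose, 9 had a window (Col1a1, Col12a1 and Col14a1 did not), and 5 of these 9 held a GC box and 4 a SMAD box. Among the 23 other collagens with a window, 13 held a GC box and 4 a SMAD box. The collagen windows also had a higher GC content, with a median of 60.0 percent beside 52.0 percent over all genes. These matches describe letters only.

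Type I collagen is the main fibril of skin, bone and tendon, built from the chains of Col1a1 and Col1a2. Col1a1 had values of 8.71, 9.05 and 8.81 in ESC, 9.73, 9.68 and 9.98 in D5, and 10.30, 10.33 and 10.29 in D10. Col1a1 rose by 0.94 (SE 0.12, 1.92-fold, limma adjusted p = 0.00408) in D5 and by 1.45 (SE 0.13, 2.74-fold, adjusted p = 0.000382) in D10. Every D5 array lay above every ESC array and below every D10 array. Col1a2 had values of 8.04, 8.35 and 8.23 in ESC, 9.07, 9.06 and 9.16 in D5, and 9.85, 9.88 and 9.86 in D10. Its rise was 0.89 (SE 0.10, 1.85-fold, limma adjusted p = 0.00194) in D5 and 1.66 (SE 0.11, 3.16-fold, adjusted p = 0.0001) in D10. The arrays of the 3 groups stood apart here too. Between ESC and D10 the change of Col1a1 was 0.21 smaller than that of Col1a2, a difference that was not tested.

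Col3a1 encodes type III collagen, which forms fibrils with type I in soft tissue. Its values were 6.49, 6.58 and 6.46 in ESC, 7.56, 7.59 and 7.68 in D5, and 8.23, 8.14 and 8.21 in D10. It rose by 1.10 (SE 0.08, 2.14-fold, limma adjusted p = 0.000386) in D5 and by 1.66 (SE 0.09, 3.17-fold, adjusted p = 5.25e-05) in D10. The groups did not overlap. Col5a1, a type V chain that nucleates type I fibrils, had values of 5.92, 6.12 and 5.86 in ESC, 6.53, 6.48 and 6.67 in D5, and 6.85, 6.87 and 6.88 in D10. It rose by 0.60 (SE 0.10, limma adjusted p = 0.0131) and 0.90 (SE 0.11, adjusted p = 0.00146), again with the 3 groups in order and apart. The D5 call of Col5a1 was lost without ESC replicate 1 or 3 or D5 replicate 1 or 3, with adjusted p of up to 0.0605.

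The partner chain of type V, Col5a2, had different values on its 2 probe sets. The probe set with the higher mean, assigned to an Ensembl transcript, read 6.88, 7.02 and 6.95 in ESC, 7.08, 6.73 and 7.28 in D5, and 6.71, 7.21 and 6.55 in D10. The changes of that probe set were 0.08 in D5 and -0.03 in D10, with limma adjusted p of 0.881 and 0.96, and its groups overlapped. The other probe set, assigned to a RefSeq transcript, read 5.17, 5.43 and 5.42 in ESC, 6.26, 6.13 and 6.17 in D5, and 6.71, 6.63 and 6.72 in D10. On it the gene was 0.84 higher in D5 (SE 0.10, limma adjusted p = 0.00257) and 1.33 higher in D10 (SE 0.11, adjusted p = 0.000231). With that probe set, chosen after its values were seen, 12 collagens would count as risen in D5 and 13 in D10. The direction of Col5a2 therefore rests on the probe set, and Col5a2 is counted among the chains that did not pass the test. Col3a1, its neighbour on chromosome 1 in RefSeq, rose as given above.

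**Figure D2:**
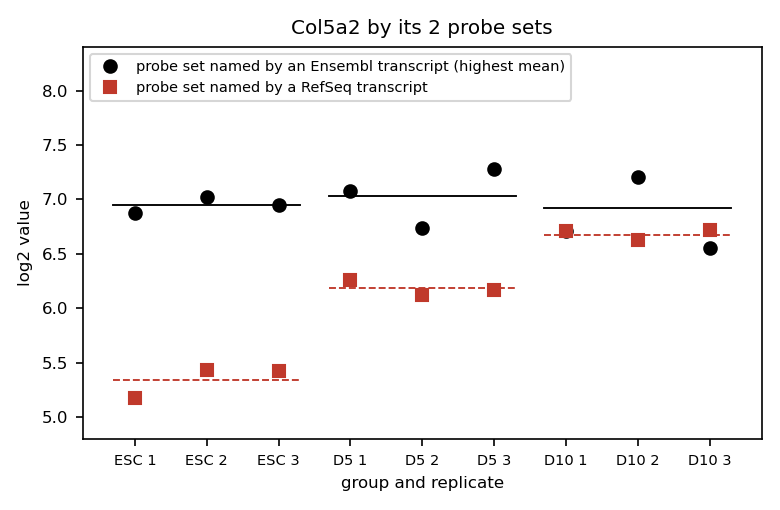
Log2 value of Col5a2 (y axis) on each of the 9 arrays (x axis, group and replicate), with a symbol for each of its 2 probe sets. The RefSeq probe set climbs from 5.17 to 5.43 in ESC to 6.63 to 6.72 in D10, and the Ensembl probe set shows no such order.

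Of the 11 fibrillar chains, 4 rose in D5 and the same 4 in D10 (Col1a1, Col1a2, Col3a1 and Col5a1), and 7 did not pass the test. Col2a1, the main fibril of cartilage, had values of 5.50, 5.94 and 5.73 in ESC, 6.23, 5.98 and 6.35 in D5, and 6.02, 6.45 and 6.10 in D10. Its differences from ESC were 0.46 in D5 and 0.53 in D10, with limma adjusted p of 0.163 and 0.106, although no D5 or D10 array was below the highest ESC array. Col11a1, a cartilage chain that assembles with type II, had differences of 0.28 and 0.35 with limma adjusted p of 0.294 and 0.175. The remaining fibrillar chains without a call, Col11a2, Col24a1, Col27a1 and Col5a3 besides Col5a2, lay between -0.06 and 0.18 in D5 and between -0.03 and 0.08 in D10. The median over the 11 fibrillar chains was 0.28 in D5 and 0.35 in D10.

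Type IV collagen of most basement membranes is built from Col4a1 and Col4a2, whose genes start next to each other and run in opposite directions. RefSeq places the starts 22 bases apart, counting both, and the stretch from one to the other is shown. It holds the letters GGGCGG of the GC box, which the window before the Col4a1 start did not hold. Col4a1 lies on the minus strand and Col4a2 on the plus strand. The stretch therefore runs from the Col4a2 start to the Col4a1 start, where the first bases of both genes overlap. It lies outside the windows before both starts, and whether it serves both chains was not tested. The stretch lies at chr8:11312801-11312830 on GRCm38.p6, written on the plus strand, and capitals run from one start to the other.
Col4a1 and Col4a2: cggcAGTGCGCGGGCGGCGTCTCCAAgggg
Col4a1 had values of 5.76, 6.06 and 5.73 in ESC, 6.41, 6.47 and 6.57 in D5, and 6.88, 6.73 and 6.91 in D10. It rose by 0.64 (SE 0.11, 1.56-fold, limma adjusted p = 0.0174) in D5 and by 0.96 (SE 0.12, 1.95-fold, adjusted p = 0.00201) in D10. For both genes the arrays of the 3 groups stood apart. Col4a2 had values of 5.80, 6.05 and 5.77 in ESC, 6.50, 6.41 and 6.45 in D5, and 6.94, 6.86 and 6.93 in D10. It rose by 0.58 (SE 0.09, 1.49-fold, limma adjusted p = 0.0139) in D5 and by 1.02 (SE 0.11, 2.03-fold, adjusted p = 0.000724) in D10. The change of Col4a1 minus that of Col4a2 was 0.06 in D5 and -0.06 in D10, and was not tested. The D5 calls rest on the number of arrays: without ESC replicate 1 or 3 or D5 replicate 1 or 3 neither gene passed, and Col4a1 did not without D5 replicate 2, with adjusted p of up to 0.0774 for Col4a1 and 0.0639 for Col4a2.

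The other 4 type IV chains belong to specialised membranes, such as those of the kidney glomerulus, and none passed the test. Col4a5 had values of 3.99, 4.24 and 4.12 in ESC, 4.10, 4.25 and 4.43 in D5, and 4.30, 4.60 and 4.37 in D10, a difference of 0.35 between D10 and ESC with a limma adjusted p of 0.171. All D10 arrays were above all ESC arrays for this gene. Col4a6, which starts 1344 bases from Col4a5 in the opposite direction, had values of 3.28, 3.79 and 3.53 in ESC, 3.64, 3.25 and 3.73 in D5, and 3.45, 3.54 and 3.53 in D10. These are mostly under the background level, and its differences of 0.01 and -0.02 carry no direction. Col4a3 and Col4a4, a further neighbouring pair, lay between -0.17 and -0.01 in both comparisons with ESC. Over the 6 chains the median change was 0.08 in D5 and 0.17 in D10.

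**Figure D3:**
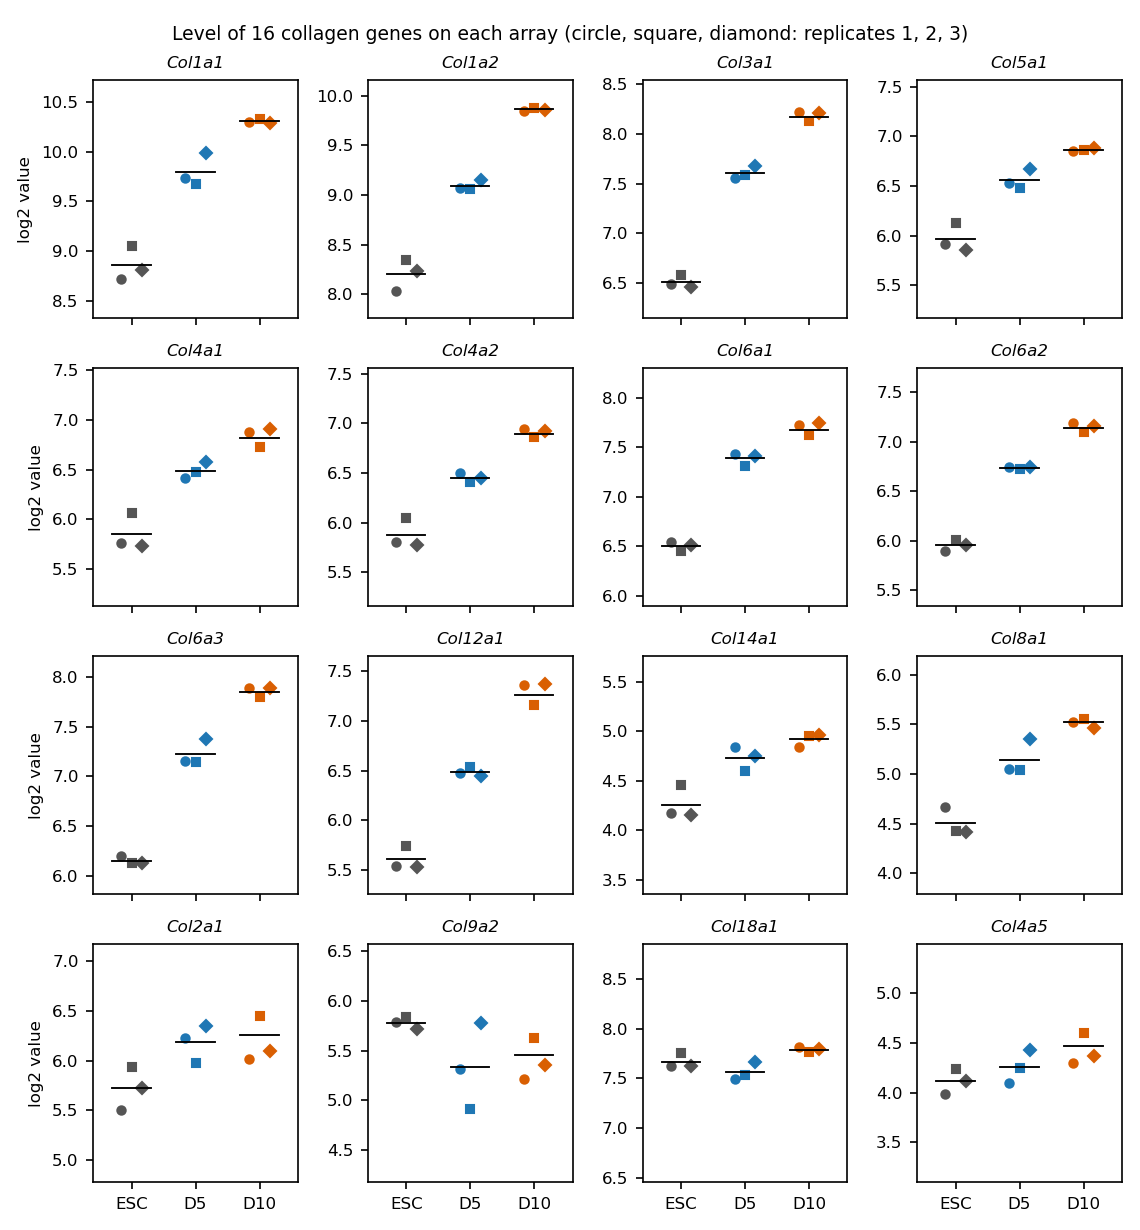
Log2 value (y axis, each panel spanning the same number of log2 units) of 16 collagen genes on every array, by group (x axis). Circles, squares and diamonds are replicates 1, 2 and 3. In Col1a1, Col1a2, Col3a1, Col6a1, Col6a2 and Col6a3 the D5 arrays lie between all ESC and all D10 arrays. In Col9a2 and Col18a1 the D5 and ESC arrays overlap.

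All 3 measured chains of type VI collagen, which forms beaded microfibrils around cells, rose in both lines. Col6a1 had values of 6.54, 6.45 and 6.52 in ESC, 7.44, 7.31 and 7.42 in D5, and 7.73, 7.62 and 7.74 in D10. It rose by 0.88 (SE 0.08, 1.84-fold, limma adjusted p = 0.000861) and by 1.17 (SE 0.09, 2.25-fold, adjusted p = 0.00018). Col6a2, its neighbour on chromosome 10, rose by a like amount in each line. Its values were 5.90, 6.01 and 5.95 in ESC, 6.74, 6.72 and 6.74 in D5, and 7.18, 7.09 and 7.16 in D10. The rise was 0.78 (SE 0.07, limma adjusted p = 0.00114) in D5 and 1.18 (SE 0.08, adjusted p = 0.000145) in D10. Col6a3, the longest of these chains, had the largest D10 change of the family. It had values of 6.19, 6.13 and 6.13 in ESC, 7.16, 7.14 and 7.37 in D5, and 7.89, 7.80 and 7.89 in D10. Its rise was 1.07 (SE 0.09, 2.10-fold, limma adjusted p = 0.000657) and 1.69 (SE 0.10, 3.24-fold, adjusted p = 8.31e-05). The D10 change of Col6a1 minus that of Col6a3 was -0.53, a difference that was not tested.

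Among the fibril-associated collagens with interrupted helices (FACIT), which sit on the surface of fibrils, 1 of 8 rose in D5 and 2 of 8 in D10. Col12a1, which decorates type I fibrils, had values of 5.54, 5.74 and 5.53 in ESC, 6.47, 6.54 and 6.44 in D5, and 7.36, 7.16 and 7.38 in D10. It rose by 0.88 (SE 0.10, 1.84-fold, limma adjusted p = 0.00199) in D5 and by 1.66 (SE 0.11, 3.16-fold, adjusted p = 0.0001) in D10. The groups were apart on every array. Col14a1, a related chain, had values of 4.17, 4.45 and 4.15 in ESC, 4.84, 4.60 and 4.75 in D5, and 4.84, 4.95 and 4.96 in D10. Its rise of 0.66 in D10 (SE 0.12, 1.58-fold) passed the test with a limma adjusted p of 0.0113. The D5 difference of 0.47 had a limma adjusted p of 0.0537, and D5 and D10 arrays met at 4.84. Without D10 replicate 2 the D10 call of Col14a1 was lost, with a limma adjusted p of 0.0812. That setting leaves D10 with 1 averaged sample, which is assumed to vary like the ESC and D5 samples that give the spread.

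Col9a2, a cartilage chain of the same group, had the lowest differences of the family. Its values were 5.79, 5.84 and 5.72 in ESC, 5.32, 4.91 and 5.78 in D5, and 5.21, 5.63 and 5.36 in D10. The differences from ESC were -0.44 and -0.32 with limma adjusted p of 0.312 and 0.488. The range of the D5 arrays, 4.91 to 5.78, was wider than either difference. Col8a1, a chain of the hexagonal network under endothelium, had values of 4.66, 4.43 and 4.42 in ESC, 5.05, 5.04 and 5.35 in D5, and 5.52, 5.56 and 5.46 in D10. It rose by 0.64 (SE 0.11, 1.56-fold, limma adjusted p = 0.0193) in D5 and by 1.02 (SE 0.13, 2.03-fold, adjusted p = 0.00175) in D10. The D5 call was lost without ESC replicate 2 or 3 or D5 replicate 1 or 3, with adjusted p of up to 0.0856. Its partner chain Col8a2 differed by 0.18 and -0.11 from ESC, with limma adjusted p of 0.698 and 0.836, and did not pass the test. Col10a1, the collagen of hypertrophic cartilage, differed by -0.20 in D5 and -0.01 in D10.

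The remaining chains showed no call. Col18a1, a basement membrane proteoglycan that releases endostatin, had values of 7.63, 7.75 and 7.63 in ESC, 7.49, 7.54 and 7.67 in D5, and 7.81, 7.76 and 7.80 in D10. It was readily detected, and its differences of -0.10 and 0.12 had limma adjusted p of 0.624 and 0.567. Col7a1, which anchors epidermis to dermis, differed by 0.22 and 0.33 with limma adjusted p of 0.38 and 0.157. The 4 transmembrane chains Col13a1, Col17a1, Col23a1 and Col25a1 lay between -0.26 and 0.13 in D5 and between -0.23 and 0.09 in D10, with all limma adjusted p-values above the threshold. Over the 27 collagens without a call, differences ran from -0.44 to 0.46 in D5 and from -0.32 to 0.53 in D10.

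**Figure D4:**
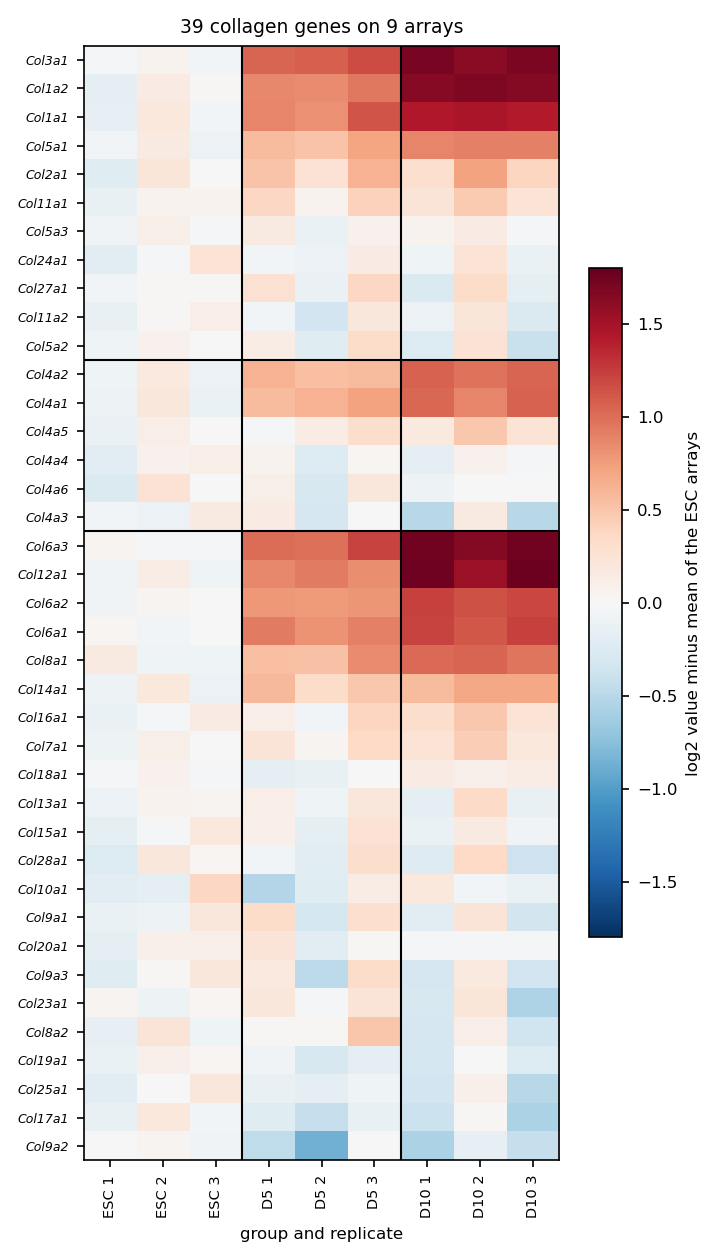
Log2 value of each of the 39 collagen genes (y axis, in the order of the classes) minus the mean of its ESC arrays, on each of the 9 arrays (x axis). Deeper red is higher and deeper blue lower than ESC; the 12 genes that rose stay red in all D5 and D10 arrays, while in 24 of the 27 other genes D10 replicate 2 stands above D10 replicates 1 and 3.

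The direct comparison of D10 with D5 is also the test of whether their changes against the shared ESC arrays differ. It called 2 collagens, where 0.215 percent of all genes were higher in D10 and 0.0179 percent lower. Col1a2 was 0.77 higher in D10 than in D5 (SE 0.11, 1.71-fold, limma adjusted p = 0.0457) and Col12a1 0.78 higher (SE 0.11, 1.72-fold, adjusted p = 0.0457). The other 10 collagens that rose against ESC were 0.20 to 0.62 higher in D10, without passing the test, and Col3a1 and Col6a3 came nearest with limma adjusted p of 0.0601 each. The calls of Col1a2 and Col12a1 were lost on leaving out any single array but D10 replicate 3, and over all alternatives their adjusted p reached 0.212 and 0.224. Among these settings, leaving out D10 replicate 2 keeps 1 averaged D10 sample and takes the spread from ESC and D5 only. At 2-fold or more 0 collagens were called, beside 0.0805 percent of all genes. In all, 12 collagens had every D10 array above every D5 array, where 10.7 percent of all genes did, and 0 had every D10 array below, where 9.76 percent did. Against ESC, such separation held for 13 collagens in D5 and 18 in D10, where 11.6 and 15.9 percent of all genes had it. The arrays of Col17a1 in D5 and of Col9a2 in D10 lay wholly below ESC, where 12.1 and 18.3 percent of all genes did.

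Of the 39 collagens, 22 had a D5 mean between those of ESC and D10, where 47.8 percent of all genes did. They were the 12 that rose, which were picked by tests on these same values, and 10 of the 27 others. In 11 of the 39, every D5 array lay above every ESC array and below every D10 array, where 3.92 percent of all genes had this order. These were the collagens that rose, without Col14a1. The 27 others shared a pattern between arrays of a group. D10 replicate 2 was the highest D10 array in 24 of them and D5 replicate 2 the lowest D5 array in 24. Over all genes these shares were 41.2 and 32.4 percent. The median of the 27 was 4.84, 5.16 and 4.62 on D10 replicates 1, 2 and 3, and 5.06, 4.76 and 5.10 on D5 replicates 1, 2 and 3. The 12 that rose had array medians between 5.91 and 6.09 in ESC, 6.63 and 6.71 in D5, and 7.13 and 7.27 in D10. D10 replicate 2 was the highest D10 array in 3 of them. D5 replicate 2 was the lowest D5 array in 9 of them, so the D5 part of the pattern was not particular to the 27 others.

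A collagen chain is hydroxylated and folded in the secretory pathway, trimmed and cross-linked outside the cell, and bound by receptors and by other matrix proteins. Of all genes, 2.83 percent rose in D5 and 6.24 percent in D10. The lists of such partners were chosen with earlier results of these data known, so their counts can reflect that choice. Of 19 measured genes for folding and modification, 2 rose in D5 and 4 in D10. In D10, Fkbp10, a prolyl isomerase, rose by 1.0 (SE 0.11, limma adjusted p = 0.000821), P4ha3, a prolyl hydroxylase subunit, by 0.96, Serpinh1, the collagen chaperone Hsp47, by 0.87 and Plod3, a lysyl hydroxylase, by 0.44. Of 13 genes for propeptide processing and cross-linking, 5 rose in D5 and 8 in D10. The propeptide protease Tll1 rose by 1.44 in D10, and the cross-linking oxidases Loxl3, Loxl1 and Loxl2 by 1.40, 1.39 and 1.30, with limma adjusted p of 9.94e-05, 0.000517, 0.000428 and 0.000577. Their relative Lox was the member of this list that also differed between D10 and D5, by 0.97 (SE 0.09, limma adjusted p = 0.011), having differed by 0.22 between D5 and ESC without passing the test. No member of these 2 lists fell.

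Of 9 measured collagen receptors, 3 rose in D5, 4 in D10 and 0 fell, where 2.83 percent of all genes rose and 1.69 percent fell in D5, and 6.24 percent rose and 3.79 percent fell in D10. Ddr2, a receptor kinase for fibrillar collagen, rose by 1.62 in D10 and Mrc2, which takes up collagen, by 1.45, with limma adjusted p of 0.000145 and 0.000333. The integrin chains Itgb1 and Itga2 rose by 0.74 each. Of 10 fibril-associated proteins 5 rose in D5 and 7 in D10, among them Thbs1 by 1.92, Postn by 1.75, Lum by 1.45 and Bgn by 1.40 in D10. Of 16 basement membrane partners of type IV collagen 3 rose and 1 fell in D5, and 7 rose and 1 fell in D10. Lama4 rose by 1.53 in D10, Nid1, which links laminin to type IV collagen, by 1.48 and Pxdn, which cross-links type IV collagen, by 1.21. Lama1, the laminin chain of early embryonic basement membranes, fell by 0.40 in D5 (limma adjusted p = 0.0424) and by 0.85 in D10 (adjusted p = 0.00115). The median change in D10 was 0.34 for folding, 0.68 for processing and cross-linking, 0.66 for receptors, 0.79 for fibril-associated proteins and 0.07 for basement membrane partners, beside -0.03 over all genes.

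**Figure D5:**
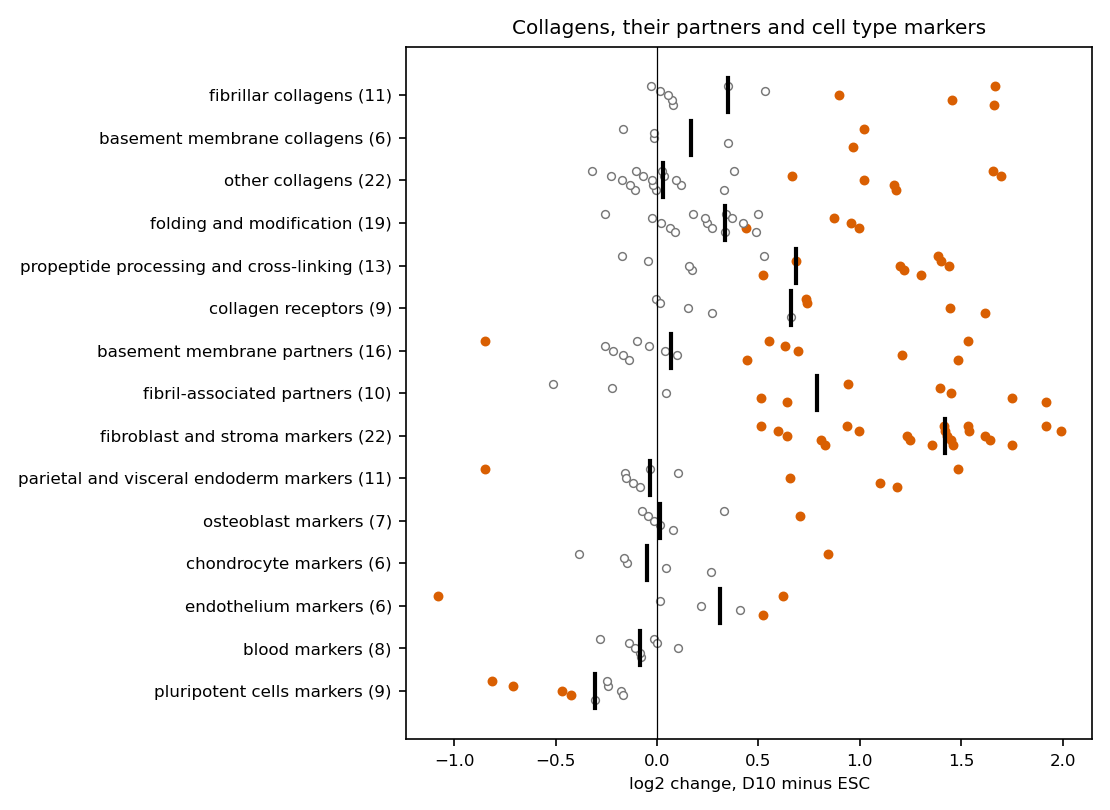
Log2 change of D10 against ESC (x axis) for every gene of the collagen classes, the partner lists and the cell type marker lists (y axis, number of genes in parentheses). Each point is a gene, filled where its adjusted p was under 0.05, and a vertical bar is the median of the list; the 22 fibroblast and stroma markers all lie to the right of 0, and the basement membrane partners lie on both sides.

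Markers of other cell types were set beside these values, and none of the lists below holds a collagen. The marker lists too were chosen with earlier results of these data known, so their counts can reflect that choice. Of 22 fibroblast and stroma markers 15 rose in D5 and 22 in D10, and 4 were higher in D10 than in D5, where the shares of all genes were 2.83, 6.24 and 0.215 percent. Their summed level was 11.72 to 11.89 in ESC, 12.43 to 12.56 in D5 and 12.93 to 13.03 in D10, in the same order as the 12 collagens that rose. Thy1 rose by 1.28 in D5 and 1.99 in D10, and of the 22 only Fap was below background in every group. Dcn, Lum, Fn1, Postn, Thbs1 and Ddr2 are in a partner list too. The part of fibroblast-like cells, feeder cells included, in the collagen changes was not tested. Of 11 endoderm markers 2 rose and 1 fell in D5, and 4 rose and 1 fell in D10, where 1.69 percent of all genes fell in D5 and 3.79 percent in D10. The 4 that rose in D10 were Gata6, Dab2, Thbd and Plat, and 6 did not pass the test there, Gata4, Sox7, Sox17 and Foxa2 among them. The median change of the list was 0.18 in D5 and -0.03 in D10. Their summed levels, in which bright genes weigh most, were 8.29 to 8.33, 8.49 to 8.58 and 8.83 to 8.85 in ESC, D5 and D10. Afp, Sox17 and Ttr were below background in every group.

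With 6 to 9 genes in each of the lists that follow, counts of 0 or 1 cannot be set apart from the shares of all genes, of which 2.83 percent rose and 1.69 percent fell in D5 and 6.24 percent rose and 3.79 percent fell in D10. Of 7 osteoblast markers, which go with type I collagen in bone, 0 rose in D5 and 1, Runx2, in D10, and Dmp1, Ibsp and Phex were below background. The 6 chondrocyte markers gave 1 that fell in D5 and 1, Sox9, that rose in D10, with Cnmd, Hapln1 and Matn1 below background. Their summed levels overlapped between ESC and D5, at 6.43 to 6.53 and 6.36 to 6.58, and were 6.74 to 6.78 in D10. Of 6 endothelial markers 1 fell in D5, and 2 rose and 1 fell in D10, and of 8 blood markers 0 passed the test in either line, with 5 of the 8 below background. Summed levels of the markers of pluripotent cells were 13.38 to 13.45 in ESC, 12.99 to 13.08 in D5 and 12.94 to 12.97 in D10. All 9 of these markers were above background in some group. Of these, 5 fell in D5 and 4 in D10, against 0 that rose. Pou5f1, which encodes Oct4, differed by -0.19 and -0.31 without passing the test, Nanog fell by 0.43 in D5 and differed by -0.18 in D10, and Sox2 fell by 0.35 and 0.43. The marker lists' summed levels are sums over genes of linear values, given as log2.

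The authors' deposited table of 461 selected probe sets held 10 collagen probe sets, among them the RefSeq probe set of Col5a2. The ratios of D10 over ESC in the authors' deposited table ran from 2.01 for Col8a1 to 3.27 for Col6a3. The authors' deposited table gave 3.14 for Col1a2, 3.20 for Col3a1 and 2.53 for Col5a2, on probe sets that the study selected from these same arrays.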

How the data were processed

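Total RNA was labelled by an Affymetrix whole-transcript protocol, per the labels' protocols, and measured on 9 arrays, 3 each of ESC, D5 and D10, grouped by sample title. The submitters' processing notes name MAS5. How arrays were normalized against each other is not stated there. The deposited log2 values, identical in both deposited log2 tables, ran from 0.70 to 13.82. The authors' short table holds linear intensity values that match the antilog of these values to within 0.00135 percent, and its ratios (fold) between groups are quoted only where named. Arrays have no read depth, and their number limits the precision.

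Tests were run with limma 3.58.1 (lmFit and eBayes) in R 4.3.3 on all 28853 probe sets, unfiltered, with a mean for each of 3 groups, D10 replicates 1 and 3 averaged, 5 residual and 3.56 prior degrees of freedom, two-sided. Summaries used Python 3.11.15 and pandas 2.3.3. The fit was tested on simulated data. Same-numbered arrays of different groups correlated at -0.38 to 0.30 in their deviations from group means, so the numbers do not pair samples.

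Members and gene lists were chosen with earlier results of these data known. Values in every array are given for members above background that pass the threshold in any comparison and for Col5a2, Col4a5, Col4a6 and Col18a1. Col2a1 and Col9a2 were added after their values were seen. From each partner list the 4 largest D10 changes past the threshold were named, and Lox was added in the same way. P3h4 and Gp6 of the partner lists had no probe set under their names, so they could not be used. Promoter windows and gene neighbours came from RefSeq tables of GRCm38.p6. Protein sequences were not used here. Alternatives were quantile normalization, median centring, a filter on dim probe sets, a variance trend, fits of only the groups compared, 9 separate arrays, a replicate block, means over probe sets, other background percentiles and leaving out each array. Col5a2 by its other probe set was added after seeing the data.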

Additional observations from a re-analysis of the deposited data

Results flagged for a closer look

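For Col1a2 and Col12a1 the test of a difference between the changes of the re-derived lines passed the threshold narrowly. The D10 change against ESC exceeded the D5 change by 0.77 for Col1a2 and by 0.78 for Col12a1 on the log2 scale, and limma's test of that difference gave an adjusted p of 0.0457 for each. Each call was lost under 10 of 17 alternatives, with adjusted p of up to 0.212 for Col1a2 and 0.224 for Col12a1. All D10 arrays were above all D5 arrays for both genes.

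The probe set of Col5a2 that did not stand for the gene was 1.33 higher in D10 than in ESC, a signal outside the values used for the family counts. It was higher on every D10 array than on every ESC array.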

How the results depend on the processing

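In D5 against ESC, 11 collagens rose under the reported settings, 7 to 11 without a single array and 11 to 12 under the other alternatives. The count was 7 without ESC replicate 3, D5 replicate 1 or D5 replicate 3. Of the 11 calls, 7 held under every alternative run, and Col4a1, Col4a2, Col5a1 and Col8a1 reached adjusted p of 0.0774, 0.0639, 0.0605 and 0.0856. In D10 against ESC, the count of 12 became 11 to 12 without a single array and 11 to 13 over all alternatives. In D10 against D5, the count of 2 became 1 with quantile normalization, 1 with median centring, 4 with the filter on dim probe sets, 5 with a variance trend, 0 when only the groups compared were fitted by limma (11 at an unadjusted p under 0.05), 6 with 9 separate arrays, and 0 to 2 without a single array. Neither of those calls held under every alternative.

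With a replicate block, which needs the 9 arrays apart, 11 collagens rose in D5, 12 in D10 and 4 in D10 against D5; the numbers do not pair the samples. The change of Col5a2 in D10 against ESC turned from -0.03 to 0.65 (limma adjusted p = 0.0142) when all probe sets of a gene were averaged. Without a single array, the family's median change ran from 0.02 to 0.25 in D5, from 0.01 to 0.13 in D10 and from -0.04 to 0.15 in D10 against D5, where it was 0.07 under the reported settings and below 0 without D5 replicate 2 or D10 replicate 2. With the 90th and 99th percentiles as background level, 39 and 26 collagens were above it. Leaving out D10 replicate 2 keeps 1 averaged D10 sample, assumed to vary like the other groups. The number of arrays limits the precision, and a collagen without a call may still have changed.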
